A study of Mus musculus with 12 samples.

Results

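The genes that make hepcidin and handle iron in the liver were examined as a group of 10: Hamp, Hamp2, Tfrc, Tfr2, Trf, Fth1, Ftl1, Slc40a1, Bmp6 and Hfe. They were taken by symbol from the table of raw counts, in which they are 10 of 54232 Ensembl genes and, after a filter on low counts, 10 of 14168 tested. The data are RNA sequencing of whole liver from male C57BL6/J mice of an intragastric model of alcohol-associated steatohepatitis (ASH), with 1 library per liver. The 5 control livers came from pair-fed (PF) mice that received an isocaloric high-fat liquid diet for 8 weeks. The 7 alcohol-fed (AF) livers came from mice on the same kind of diet for 8 weeks with ethanol, raised over that time to 27 g/kg/day, and a weekly binge of 5 g/kg from the second week. The labels give an age of 8 weeks for every mouse of both groups. By the study's methods, mice of this model first eat a solid Western diet or chow, and then the Western diet at will beside the liquid diet, and the labels do not say which mouse began on which. Livers were taken a day after the last binge. The labels number the livers without naming a litter or batch, and p-values measure the spread between these samples.

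Hepcidin is a small peptide that hepatocytes secrete. It binds ferroportin, the iron exporter on macrophages, hepatocytes and gut cells, and causes its removal, so that less iron enters the plasma. The liver sets hepcidin through a BMP and SMAD pathway that reads iron stores and transferrin saturation, and through IL-6 and STAT3 in inflammation. Inside the cell, iron regulatory proteins bind hairpins in a few mRNAs, the iron-responsive elements, and so set ferritin, ferroportin and transferrin receptor by translation and mRNA stability rather than by transcription. Alcohol-associated liver disease is known for iron loading of the liver.

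Between 24129900 and 30578639 reads per library fell on genes. Values are given as CPM, the share of a library's reads scaled to a fixed total, adjusted by TMM factors, which spanned 0.832 to 0.901 for PF libraries and 0.880 to 1.36 for AF libraries. The threshold was an adjusted p of 0.05 in edgeR's quasi-likelihood test. Of all tested genes, 39.8% passed it, 22.0% higher and 17.8% lower in AF, with a median log2 fold change of 0.04. With library totals in place of TMM, the median of all genes shifted up by 0.36 and the share of higher calls among all calls went from 55.3 to 87.3%, so the directions below are relative to the bulk of the transcriptome. Under that scaling 6458 of the 14168 tested genes were higher and 938 lower. List counts given below for library totals stand beside these numbers. Hepatocyte transcripts dominated both groups, with 8 hepatocyte markers summing to 97323 to 139217 CPM in PF and 52021 to 102013 CPM in AF. Of these markers, 3 of 8 fell (Apoa1, Tat and Cps1) and none of the 8 rose, and with library totals 2 of 8 fell. More fell in other fits: 6 with DESeq2, 5 with limma-voom, 7 with limma-voom and sample quality weights, and 5 without AF replicate 6. Among markers of other cells, 5 of 6 Kupffer cell, 5 of 8 recruited macrophage, 5 of 7 stellate cell and 4 of 5 bile duct genes rose under TMM, and no listed gene of these cells fell. With limma-voom only 1 of the 5 bile duct genes rose, and with DESeq2 all 5. No marker of hepatocytes, Kupffer cells or macrophages was at 0 in any liver. In whole liver, fewer cells of a type and less RNA per cell cannot be told apart.

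The storage and export genes rose, while the transferrin, transferrin receptor 2 and hepcidin 2 genes fell. In AF livers, 4 of the 10 genes were higher (Ftl1, Fth1, Slc40a1 and Hfe), 3 were lower (Tfr2, Trf and Hamp2) and 3 did not pass the threshold (Hamp, Tfrc and Bmp6). A share of 4 in 10 higher stands beside 22.0% of all tested genes, and 3 in 10 lower beside 17.8%. With library totals 4 were higher and 1 lower, beside 6458 higher and 938 lower of the 14168 tested genes. The count of lower members ran from 1 to 3 with 1 liver left out. The median log2 fold change of the 10 genes was 0.23. All AF livers lay above all PF livers for 2 genes, Fth1 and Ftl1, against 8.20% of all tested genes, and for no member did all AF livers lie below all PF livers, against 9.49%. The hepcidin gene itself, Hamp, averaged 609.9 ± 106 CPM (SD over 5) in the PF group, beside 625.1 ± 279 CPM (SD over 7) for AF mice.

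**Figure D1:**
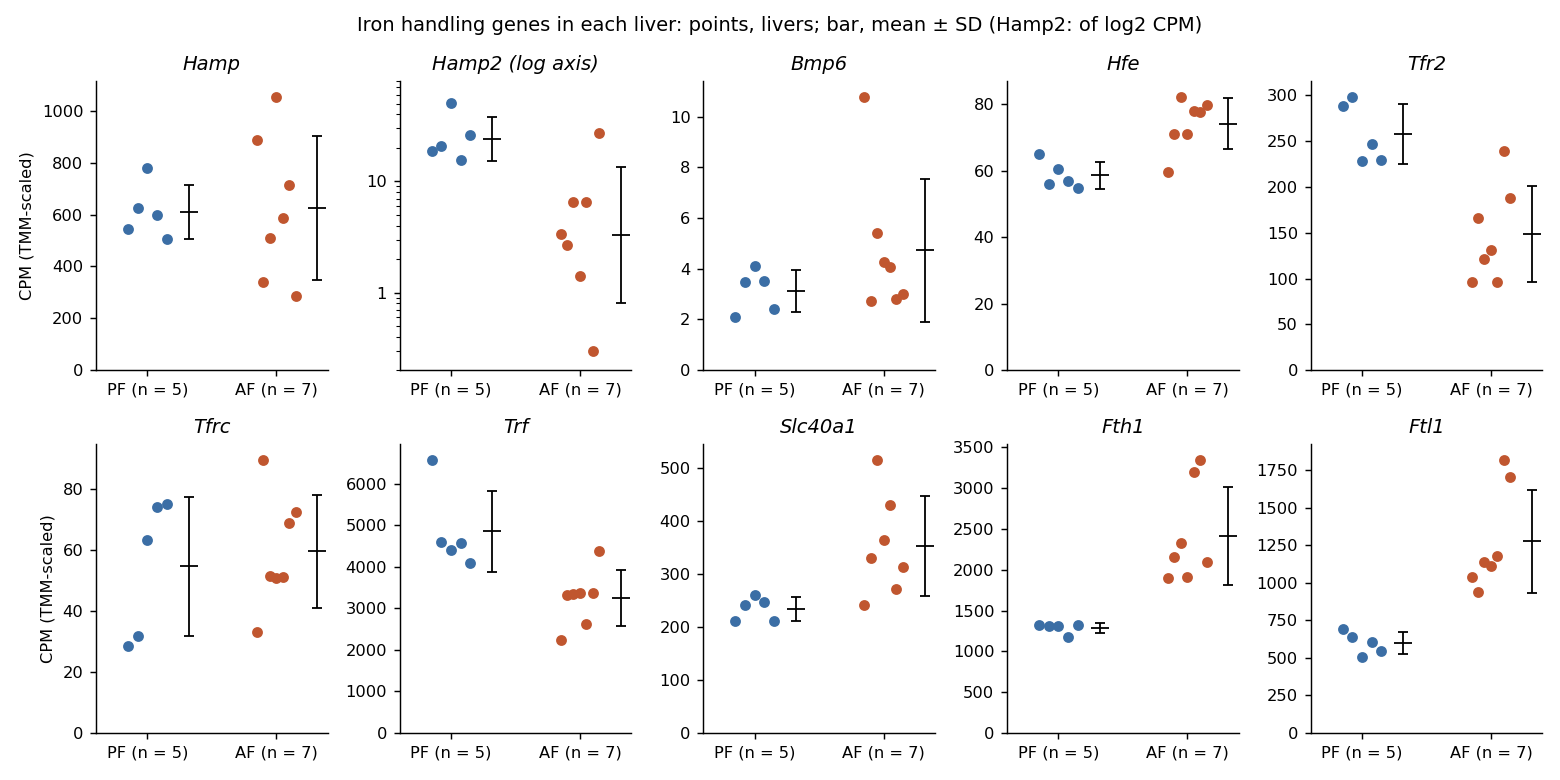
CPM (TMM-scaled) of the 10 genes in each liver, with 5 PF livers in blue and 7 AF livers in orange, and bars for mean and SD; Hamp2 is on a log axis with mean and SD of log2 CPM. Fth1 and Ftl1 separate the groups, Hamp does not, and Hamp2 is low in 6 of 7 AF livers and at 27.3 CPM in the other.

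Mice have 2 hepcidin genes that lie side by side on chromosome 7 on the minus strand (GRCm38): Hamp at chr7:30942368-30944032 and Hamp2 at chr7:30922372-30924681. Hamp encodes the hormone, and Hamp2 a close relative without a settled role in iron balance. Their annotated mRNAs, of 410 bases for Hamp and 420 for Hamp2, were identical at 92.4% of aligned positions, with a longest shared run of 87 bases, so reads within such a run cannot be assigned to either gene.

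Their promoters are shown because Hamp2 passed the threshold and Hamp did not. That alone does not establish a difference between the 2 genes. Their ratio, tested directly below, did not pass (exact permutation test, adjusted over 5 ratios p = 0.0885). The hepcidin promoter is known to respond to BMP and STAT3 signals, whose genes are described further on. Their action at these promoters was not measured here. RefSeq (GRCm38.p6) holds 8 of the 10 members in its promoter table. In the 250 bases before the start, Hamp and Hamp2 were identical at 89.7% of 253 aligned positions. The stretches below run from base 160 to base 11 before the RefSeq start, 5′ to 3′ on the minus strand, at chr7:30944040-30944189 for Hamp and chr7:30924192-30924341 for Hamp2. Capitals mark the GGCGCC site, known as a BMP response element of the hepcidin promoter, with the bases aligned to it in Hamp2, and the TTCTTGGAA site, of the type that STAT3 binds.
Hamp: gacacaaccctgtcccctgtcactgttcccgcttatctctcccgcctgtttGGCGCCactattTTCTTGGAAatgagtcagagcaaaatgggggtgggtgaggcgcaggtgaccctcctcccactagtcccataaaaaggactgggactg
Hamp2: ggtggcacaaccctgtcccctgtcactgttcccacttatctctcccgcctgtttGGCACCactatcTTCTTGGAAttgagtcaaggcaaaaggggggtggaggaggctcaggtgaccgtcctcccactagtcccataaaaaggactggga

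The site GGCGCC, which reads the same on both strands, began 109 bases before the start of Hamp. At the aligned position in Hamp2, 106 bases before its start, the letters were GGCACC, a substitution of G4A counted from the first base of the site in Hamp. TTCTTGGAA began 97 bases before the start of Hamp and 94 before that of Hamp2. Of 32851 promoter entries of 250 bases, searched on both strands, 9.59% held GGCGCC, 0.365% held TTCTTGGAA, and 7.02% held the wider form TTCNNNGAA, of which TTCTTGGAA is 1 case. A match describes letters in the window and was not tested for binding.

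Hamp was abundant, and its difference between the groups did not pass the threshold. In PF livers it stood at 543, 624, 779, 598 and 505 CPM, and in AF livers it ran from 286 through a median of 587 to 1052 CPM. Thus 2 AF livers lay above all PF livers (886 and 1052 CPM), 2 below (286 and 342 CPM), and 3 within their range. The fold change was 1.02 with a 95% confidence interval from 0.666 to 1.58 (log2 0.04, SE 0.29, adjusted p = 0.931), so a change within that interval was not detectable in these livers. The sign of this small value turned with the voom fits (log2 fold change -0.10, and -0.04 with sample quality weights). Over 22 alternative fits the log2 fold change ran from -0.14 to 0.44 and never passed. The highest and lowest livers differed 3.68-fold in AF and 1.54-fold in PF. On the log2 scale, the SD of Hamp was 0.69 in AF and 0.24 in PF livers; the difference in spread was not tested.

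Hamp2 was far lower than Hamp and fell in most AF livers. PF livers held 18.7, 20.7, 50.8, 15.5 and 26.3 CPM. AF livers ran from 0.298 through a median of 3.40 to 27.3 CPM. In 6 of 7 AF livers Hamp2 was below every PF liver, and AF replicate 7 lay within the PF range. The mean fell to 0.260 of PF (95% confidence interval 0.0884 to 0.762, log2 fold change -1.95, SE 0.72, adjusted p = 0.0462). This call was close to the threshold. It was lost in 10 of the 12 fits that left out 1 liver (adjusted p 0.0549 to 0.126) and kept without AF replicate 6 or AF replicate 7. Without AF replicate 7 the log2 fold change was -2.92 (adjusted p = 0.00217).

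The share of Hamp2 among the reads of both hepcidin genes was also taken within each library, where scaling plays no part. It was 3.33, 3.21, 6.13, 2.53 and 4.96% in PF replicates 1 to 5. In AF livers it was 0.382, 0.782, 1.26, 0.134, 1.09, 0.0418 and 8.73% in replicates 1 to 7. AF replicate 6 had 8 Hamp2 reads beside 19151 Hamp reads, an exact 95% binomial interval of 0.0180 to 0.0823%, while AF replicate 7 had 777 beside 8123, an interval of 8.15 to 9.34%. These intervals cover counting error only, and they leave the livers of the AF group far apart. The log2 ratio of Hamp2 to Hamp averaged -4.65 ± 0.54 (SD, n = 5) in PF and -7.41 ± 2.49 (SD, n = 7) in AF, a difference of -2.76 (exact two-sided permutation test over 792 splits, p = 0.0354, adjusted over 5 ratios p = 0.0885). It passed the threshold without AF replicate 7 (difference -3.43, adjusted p = 0.0217). In the other 11 fits that left out 1 liver it did not pass (adjusted p up to 0.182).

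**Figure D2:**
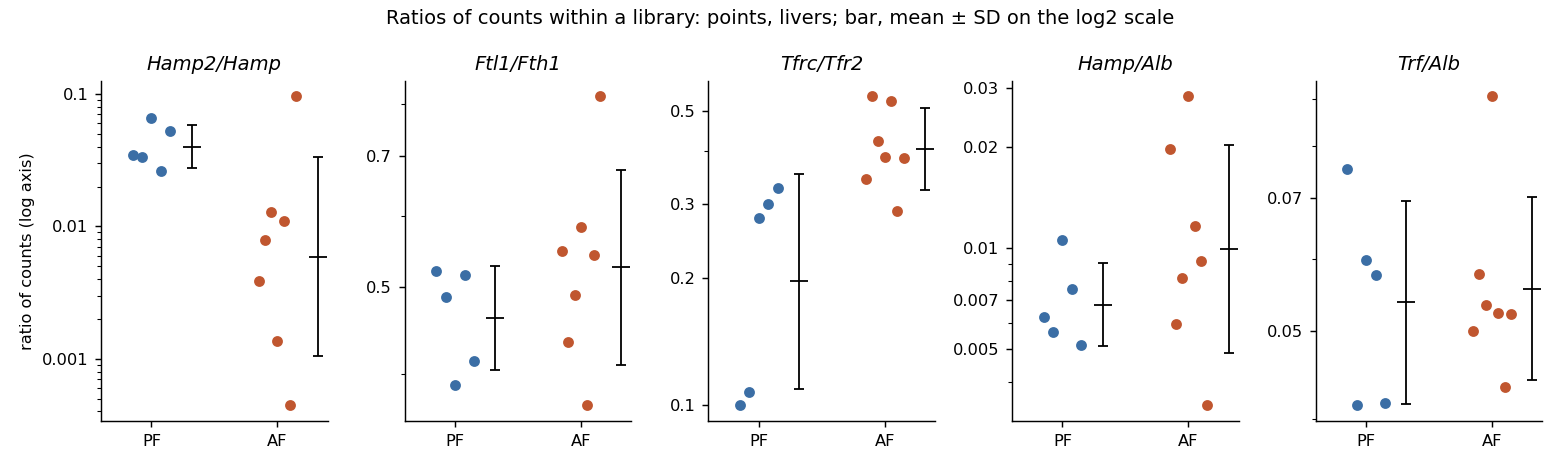
Ratios of read counts within each library for 5 pairs of genes, on log axes, with 1 point per liver and bars for mean and SD of the log2 ratio. Hamp2/Hamp is below the PF livers in 6 of 7 AF livers, Tfrc/Tfr2 is above them in 6 of 7, and the other 3 ratios overlap widely.

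Bmp6, the ligand that liver endothelial cells release as iron stores rise, was expressed at a low level and did not pass the threshold. PF livers held 2.12, 3.48, 4.13, 3.50 and 2.40 CPM, and AF livers ran from 2.73 through 4.08 to 10.8 CPM. AF replicate 1 held the highest value, and 4 AF livers lay within the PF range. The log2 fold change was 0.60 (SE 0.34, adjusted p = 0.178), and without AF replicate 1 it was 0.25 (adjusted p = 0.414). Bmp6 (chr13:38345107-38500302, plus strand) shares exon bases with Txndc5 on the other strand. Txndc5 had 64286 reads in all livers and Bmp6 1464. The strand setting of the counting is not given in the sources used here, so the part of those reads that Bmp6 may have received is not known.

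Hfe, the MHC class I-like protein whose loss causes the common form of hereditary haemochromatosis, rose slightly. In PF livers it stood at 65.0, 56.0, 60.3, 56.8 and 54.8 CPM, and in AF livers from 59.5 through 77.7 to 82.0 CPM. Here 6 of 7 AF livers lay above every PF liver, and AF replicate 1 lay within the PF range. The rise was 1.26-fold (log2 0.34, SE 0.09, adjusted p = 0.00981), the narrowest error of the 10 genes. Hfe lies at chr13:23702034-23710854 on the minus strand.

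Tfr2, the receptor by which hepatocytes sense transferrin that carries iron, fell. PF livers held 288, 298, 228, 247 and 229 CPM, and AF livers ran from 96.4 through 131 to 239 CPM. All AF livers but AF replicate 6 lay below every PF liver. The level in AF was 0.575 of PF (95% confidence interval 0.419 to 0.789, log2 -0.80, SE 0.21, adjusted p = 0.0100), and the call held in all 22 alternatives. Tfr2 lies at chr5:137569840-137587481 on the plus strand. It is a hepatocyte gene, and the hepatocyte markers Apoa1, Tat and Cps1 fell beside it by 1.21, 1.09 and 0.88 on the log2 scale (adjusted p = 0.00117, 0.00991 and 0.00793). Their part in the fall of Tfr2 was not tested.

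Of 16 other tested genes of the BMP receptor complex and its regulators, 3 rose, 2 fell and 11 did not pass. This stands beside 22.0% higher and 17.8% lower of all tested genes. The median log2 fold change of the list was -0.07. With library totals 7 rose and none fell, beside 6458 higher and 938 lower of all 14168 tested genes, and the median was 0.31. Inhbb, which encodes the activin B subunit, a SMAD1/5/8 ligand in inflamed liver, rose from a PF mean of 1.38 ± 0.58 (SD, n = 5) to an AF mean of 4.71 ± 2.77 CPM (SD, n = 7; log2 1.77, SE 0.37, adjusted p = 0.00284). Hjv, the BMP co-receptor hemojuvelin that hepcidin synthesis requires, rose 1.64-fold from a PF mean of 66.6 ± 11.4 (SD, n = 5) to an AF mean of 109 ± 16.3 CPM (SD, n = 7; adjusted p = 0.00130), and all AF livers lay above all PF livers. Fkbp1a, which holds type I BMP receptors in check, rose as well (log2 0.51, adjusted p = 0.00335). Smad9, a receptor-regulated SMAD that can dampen the pathway, fell (log2 -1.24, adjusted p = 0.00801), and so did Acvr2a, an activin and BMP receptor (log2 -0.35, adjusted p = 0.0194). With library totals neither fall passed (adjusted p = 0.0808 for Smad9).

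Other regulators did not pass in the edgeR fit over all livers. Tmprss6, the protease that cleaves hemojuvelin, had a log2 fold change of -0.35 (adjusted p = 0.161) and passed in 3 of 22 alternatives, voom with quality weights among them. Fgl1, a hepatocyte protein that binds BMP ligands, had a PF mean of 1595 ± 261 (SD, n = 5) and an AF mean of 947 ± 398 CPM (SD, n = 7), with all AF livers below all PF livers, and missed the threshold (log2 -0.75, adjusted p = 0.0514). It passed in 10 of 22 alternatives, DESeq2 and both voom fits among them. Nbl1, a BMP antagonist at under 1 CPM, had a log2 fold change of 0.77 (adjusted p = 0.145). Erfe, the hormone by which red cell precursors lower hepcidin, was too low to test, with 0.0260 CPM in PF and 0.0982 CPM in AF.

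Of 8 targets that BMP signalling switches on, 3 rose, none fell and 5 did not pass. This stands beside 22.0% higher and 17.8% lower of all tested genes. The median log2 fold change of the list was 0.49. With library totals 6 rose and none fell, beside 6458 higher and 938 lower of all 14168 tested genes, and the median was 0.89. Id1, a direct SMAD1/5 target often read beside hepcidin, rose from a PF mean of 1.29 ± 0.47 (SD, n = 5) to an AF mean of 5.91 ± 3.24 CPM (SD, n = 7; log2 2.20, SE 0.40, adjusted p = 0.00117). Id3 rose by 1.33 on the log2 scale (adjusted p = 0.000545) and Smad6, an inhibitory SMAD, by 1.04 (adjusted p = 0.0106). All AF livers lay above all PF livers for Id1 and Id3, and 6 of 7 for Smad6. Smad7, the inhibitory SMAD that lowers hepcidin, had a log2 fold change of 0.11 (adjusted p = 0.633). Atoh8, a factor reported to act at the hepcidin promoter, had 0.53 (adjusted p = 0.0625, passed in 9 of 22 alternatives) and Bambi, a decoy receptor, 0.45 (adjusted p = 0.180). Stellate cells and sinusoidal endothelium also express Id genes, and 5 of 7 stellate cell markers rose, their sum going from 168 to 444 CPM in PF to 371 to 668 CPM in AF. Of the endothelial markers 1 of 7 rose with TMM and 5 of 7 with library totals, and their sum was 170 to 343 CPM in PF livers beside 217 to 347 CPM in AF livers. The part of either cell type in the rise of Id1 was not tested.

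Of 8 tested genes of IL-6 and STAT3 signalling, 1 rose and 1 fell, beside 22.0% higher and 17.8% lower of all tested genes. The median log2 fold change of the list was -0.10. With library totals 2 rose and none fell, and the median was 0.24. Il6 itself was too low to test, at 0.160 CPM in PF and 0.112 CPM in AF. Its receptor Il6ra fell (log2 -0.76, adjusted p = 0.0210), a call that was lost without PF replicate 2 and with library totals (adjusted p up to 0.0730). Il22ra1, the receptor for IL-22, rose from a PF mean of 4.09 ± 1.18 (SD, n = 5) to an AF mean of 9.22 ± 2.76 CPM (SD, n = 7; log2 1.17, adjusted p = 0.00229). Stat3 missed the threshold (log2 -0.55, adjusted p = 0.0507, passed in 8 of 22 alternatives), as did its target Socs3 (log2 -0.73, adjusted p = 0.278) and Jak1 (log2 0.21, adjusted p = 0.0886). AF replicate 6 was the highest AF liver for both Stat3, at 230 CPM, and Socs3, at 34.4 CPM. Without it the list had 4 genes past the threshold in place of 2, Stat3 and Socs3 among the gains.

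Of 10 transcription factors that act at the hepcidin gene or on it in hepatocytes, 3 fell, none rose, and 7 did not pass. This stands beside 17.8% lower and 22.0% higher of all tested genes. The median log2 fold change of the list was -0.30. With library totals 3 rose and 2 fell, and the median was 0.05. Bhlhe40 fell from a PF mean of 174 ± 81.1 (SD, n = 5) to an AF mean of 78.3 ± 22.3 CPM (SD, n = 7; log2 -1.15, adjusted p = 0.00601). Epas1, the hypoxia factor HIF-2 alpha that carries an iron-responsive element in its mRNA, fell by 0.75 on the log2 scale (adjusted p = 0.00298). Cebpb fell by 0.98 (adjusted p = 0.0284), a call lost without PF replicate 1, PF replicate 2, AF replicate 3 or AF replicate 5 and with library totals (adjusted p up to 0.102). Cebpa, a main activator of basal hepcidin, had a PF mean of 195 ± 47.2 (SD, n = 5) and an AF mean of 137 ± 36.3 CPM (SD, n = 7; log2 -0.51, adjusted p = 0.0556), and passed in 9 of 22 alternatives, DESeq2 and quality weights among them. Creb3l3, the ER stress factor CREBH that can induce hepcidin, had a log2 fold change of 0.12 (adjusted p = 0.666).

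Within the AF group, Hamp varied enough to ask which genes went with it. Its log2 CPM was set against that of 11 genes over the 7 AF livers. The highest positive Pearson r were 0.54 for Bmp6 (Spearman rho 0.50) and 0.42 for Id1 (rho 0.32), and the lowest were -0.62 for Hamp2 (rho -0.64) and -0.59 for Trf (rho -0.29). By the exact permutation test none of the 11 passed, with the lowest raw p = 0.133 for Hamp2 and all r at an adjusted p of 0.547 or more (rho at 0.587 or more). Without the 2 livers farthest from the median of the partner gene, r was 0.24 for Bmp6, 0.22 for Id1, -0.42 for Hamp2 and 0.07 for Trf, while it was -0.85 for Creb3l3 and -0.76 for Hfe, over 5 livers each. With library totals r of Hfe changed sign, from -0.47 to 0.37. Over all 12 livers with the group means removed, the genes most like Hamp among 8173 compared were Il1rn (r = 0.92), Cstf2 (0.89), Srsf7 (0.88), Lrrfip1 (0.88) and Prpf3 (0.87). These are descriptions over livers that share libraries and scaling, with no test.

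**Figure D3:**
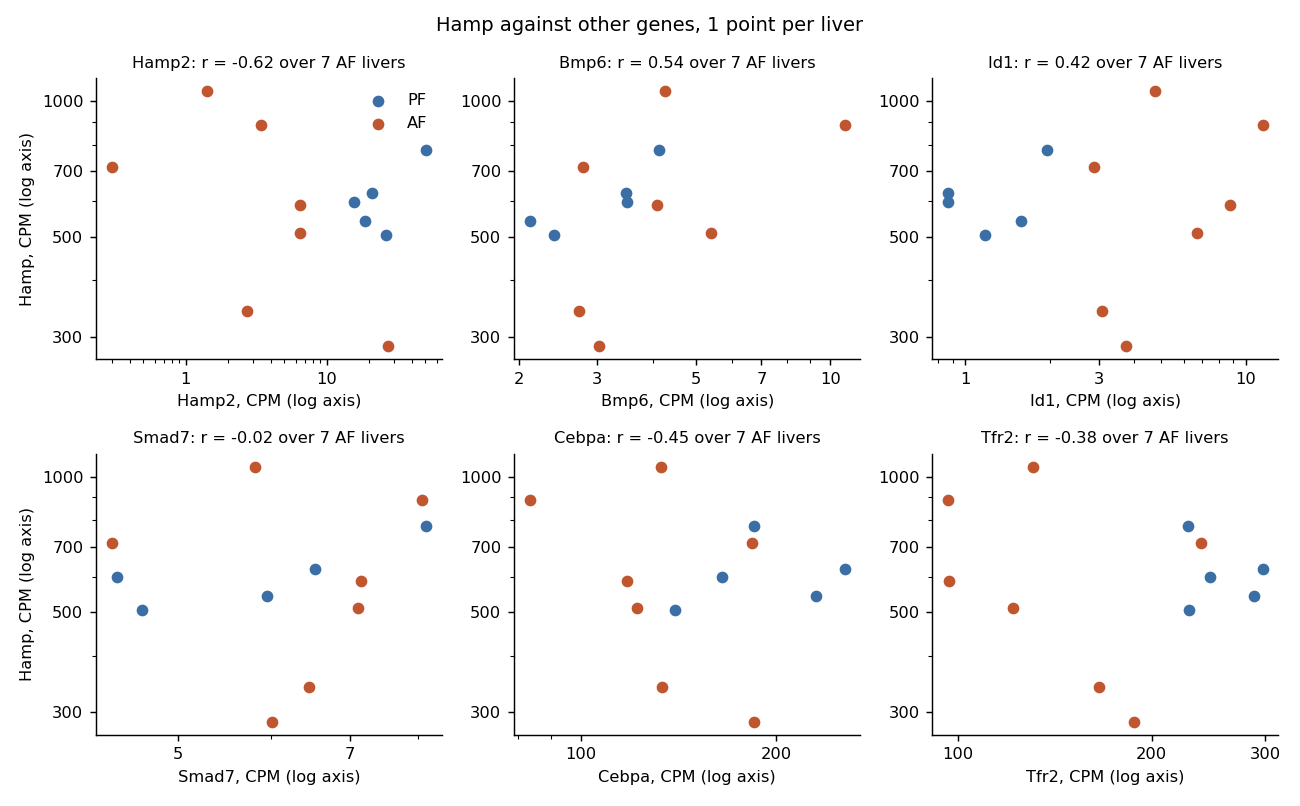
Hamp against 6 other genes in CPM on log axes, 1 point per liver, PF in blue and AF in orange; each title gives Pearson r of log2 CPM over the 7 AF livers. The points of the AF livers scatter widely, and r runs from -0.62 for Hamp2 to 0.54 for Bmp6.

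Trf encodes transferrin, the plasma carrier of iron made by hepatocytes, and was the member with the most reads. PF livers held 6565, 4594, 4411, 4577 and 4093 CPM, and AF livers ran from 2244 through 3351 to 4381 CPM. All AF livers but AF replicate 7 lay below every PF liver. The level in AF was 0.668 of PF (95% confidence interval 0.497 to 0.899, log2 -0.58, SE 0.20, adjusted p = 0.0330). The call was lost without PF replicate 1 (adjusted p = 0.0973), the highest PF liver, and without PF replicate 2, PF replicate 4, AF replicate 1, AF replicate 3 or AF replicate 5 (adjusted p 0.0516 to 0.0545). With library totals it was lost as well (log2 -0.24, adjusted p = 0.191), although relative to the median of all genes the value was -0.62 with TMM and -0.64 with library totals. Trf lies at chr9:103204001-103230444 on the minus strand.

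Trf was also set against albumin, another secreted product of hepatocytes. The ratio of Trf to Alb counts was 0.0755, 0.0414, 0.0599, 0.0577 and 0.0417 in PF livers and ran from 0.0434 through 0.0523 to 0.0906 in AF livers. The log2 ratio differed by 0.05 (exact permutation p = 0.807, adjusted over 5 ratios p = 0.807). Alb itself had a log2 fold change of -0.60 (SE 0.33, adjusted p = 0.164). Hamp against Alb was 0.56 higher on the log2 scale in AF (exact permutation p = 0.284, adjusted p = 0.410), with 3 of 7 AF livers above all PF livers.

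Tfrc encodes transferrin receptor 1, the general route of iron uptake, whose mRNA is stabilised when iron is scarce. PF livers held 28.6, 31.9, 63.1, 74.2 and 75.1 CPM, and AF livers ran from 33.2 through 51.5 to 89.4 CPM. The PF livers thus fell apart into PF replicates 1 and 2 at the low end and the other three between 63.1 and 75.1 CPM, within the AF range. The fold change was 1.09 (95% confidence interval 0.717 to 1.66, log2 0.13, SE 0.28, adjusted p = 0.745). Tfrc lies at chr16:32608920-32632794 on the plus strand.

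The balance of the 2 transferrin receptors differed between the groups. The ratio of Tfrc to Tfr2 counts was 0.0995, 0.107, 0.277, 0.301 and 0.328 in PF replicates 1 to 5 and ran from 0.289 through 0.388 to 0.540 in AF. In 6 of 7 AF livers it exceeded every PF liver. The log2 ratio averaged -2.35 ± 0.85 (SD, n = 5) and -1.30 ± 0.32 (SD, n = 7), a difference of 1.05 (exact two-sided permutation test, p = 0.00379, adjusted over 5 ratios p = 0.0190; the smallest p the 792 splits allow is 0.00126). It held in every fit that left out 1 liver (difference 0.80 to 1.23, adjusted p 0.0108 to 0.0455).

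Of 14 other tested iron transport genes 2 rose, 1 fell and 11 did not pass. This stands beside 22.0% higher and 17.8% lower of all tested genes. The median log2 fold change of the list was -0.11. With library totals 4 rose and none fell, and the median was 0.21. Cp, ceruloplasmin, the secreted ferroxidase that helps load iron onto transferrin, fell from a PF mean of 6166 ± 859 (SD, n = 5) to an AF mean of 3906 ± 580 CPM (SD, n = 7; log2 -0.66, adjusted p = 0.0104). With library totals this fall did not pass (adjusted p = 0.167). Heph, the membrane-bound ferroxidase hephaestin, rose from a PF mean of 1.92 ± 0.71 (SD, n = 5) to an AF mean of 6.92 ± 5.32 CPM (SD, n = 7; log2 1.85, adjusted p = 0.00725). Slc22a17, a receptor for lipocalin 2, rose from a PF mean of 0.605 ± 0.221 (SD, n = 5) to an AF mean of 1.18 ± 0.37 CPM (SD, n = 7; log2 0.96, adjusted p = 0.0294), a call lost in 6 of 22 alternatives, among them those without PF replicate 2, PF replicate 4, PF replicate 5, AF replicate 3 or AF replicate 4 (adjusted p up to 0.0716).

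The transporters for iron that is not bound to transferrin did not pass in the edgeR fit over all livers. Slc39a14, the ZIP14 importer of hepatocytes, had a PF mean of 377 ± 39.0 (SD, n = 5) and an AF mean of 243 ± 129 CPM (SD, n = 7), below all PF livers in 6 of 7 AF livers and at 515 CPM in AF replicate 6 (log2 -0.63, adjusted p = 0.0886). Without AF replicate 6 it passed. Slc11a2, the DMT1 importer, had a log2 fold change of -0.09 (adjusted p = 0.735), and Scara5, a ferritin receptor, -1.28 with a wide error (SE 0.71, adjusted p = 0.161). Scara5 passed in 3 of 22 alternatives, both voom fits among them, with a log2 fold change down to -2.41 and an adjusted p down to 0.0133. Lcn2, the siderophore-binding lipocalin 2 of the acute phase, had 0.35 (adjusted p = 0.462).

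Both ferritin chains and ferroportin carry an iron-responsive element near the 5′ end of the mRNA, where bound iron regulatory protein blocks translation, and Tfrc carries its elements in the 3′ UTR. The hairpin was searched on the sense strand of GENCODE M21 protein-coding transcripts as CNNNNNCAGTGN followed by 5 bases that pair with those between the first C and CAGTG, G-T pairs allowed. At least 1 match was found in 294 of 21901 genes (1.34%), among them 4 of the 10 members. The matches are shown since they set apart the members under this control, with the unpaired C and CAGTG in capitals, in 30 bases each, 5′ to 3′ on the gene's strand (GRCm38). They lie in UTR exons at chr19:9982731-9982760 (Fth1, plus strand), chr7:45459779-45459808 (Ftl1, minus strand), chr1:45925465-45925494 (Slc40a1, minus strand), and on the plus strand of Tfrc at chr16:32631218-32631247, chr16:32631597-32631626, chr16:32631662-32631691 and chr16:32631709-32631738.
Fth1, 5′ UTR: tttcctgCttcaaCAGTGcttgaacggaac
Ftl1, 5′ UTR: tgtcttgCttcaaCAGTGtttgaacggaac
Slc40a1, 5′ UTR: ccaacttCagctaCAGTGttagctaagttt
Tfrc, 3′ UTR: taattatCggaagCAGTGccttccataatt
Tfrc, 3′ UTR: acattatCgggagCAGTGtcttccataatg
Tfrc, 3′ UTR: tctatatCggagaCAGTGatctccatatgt
Tfrc, 3′ UTR: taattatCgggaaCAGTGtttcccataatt

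The 3 members with a match in the 5′ UTR all rose in mRNA, and Tfrc, with 4 matches in the 3′ UTR, did not pass. Translation, which the 5′ elements control, was not measured here.

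Fth1, the heavy ferritin chain that oxidises iron for storage, rose in every AF liver. PF livers lay close together at 1327, 1310.4, 1307, 1178 and 1321 CPM. AF livers ran from 1895 through 2159.7 to 3343 CPM, all above the PF livers. The rise was 1.88-fold (95% confidence interval 1.43 to 2.46, log2 0.91, SE 0.18, adjusted p = 0.00223). Fth1 lies at chr19:9980598-9985098 on the plus strand.

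Ftl1, the light ferritin chain that helps form the iron core, rose by a like amount. PF livers held 691, 640.2, 509, 608 and 547 CPM, and AF livers ran from 939 through 1139 to 1819 CPM, again all above the PF livers. The rise was 2.13-fold (95% confidence interval 1.61 to 2.83, log2 1.09, SE 0.19, adjusted p = 0.000931). The ratio of Ftl1 to Fth1 counts was 0.521, 0.489, 0.389, 0.516 and 0.415 in PF and ran from 0.369 through 0.544 to 0.816 in AF, a log2 difference of 0.19 (exact permutation p = 0.328, adjusted p = 0.410). Ftl1 (chr7:45457944-45459884, minus strand) has processed copies in the genome. The copy with the most reads, Ftl1-ps1, shares an identical run of 149 bases with Ftl1 mRNA. It held 773 reads in PF and 2551 in AF livers, together 0.966% of the Ftl1 reads. Reads within that run cannot be assigned to either gene, and their number is not known here.

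Slc40a1, ferroportin, the exporter that hepcidin removes, rose in most AF livers. PF livers held 211, 241, 260.0, 247 and 211 CPM, and AF livers ran from 242 through 331 to 515 CPM. In 6 of 7 AF livers it exceeded every PF liver, and AF replicate 1 lay within the PF range. The rise was 1.51-fold (95% confidence interval 1.16 to 1.96, log2 0.59, SE 0.17, adjusted p = 0.0166), and the call held in all 22 alternatives, with the highest adjusted p = 0.0449 without AF replicate 3. Slc40a1 lies at chr1:45908068-45926523 on the minus strand. Ferroportin is abundant in Kupffer cells, whose 6 markers summed to 587 to 797 CPM in PF and 799 to 2433 CPM in AF. Recruited macrophage markers summed to 301 to 675 CPM in PF and 637 to 2588 CPM in AF. Cd5l and Marco rose by 1.31 and 1.78 on the log2 scale (adjusted p = 0.00130 and 0.0139), Clec4f by 0.49 (adjusted p = 0.0493, close to the threshold), and Timd4 stood at -0.01 (adjusted p = 0.984). The count of Kupffer cell markers that rose was 5 of 6, against 4 with limma-voom and in most fits that left out 1 liver. The part of these cells in the rise of Slc40a1, Fth1 and Ftl1 was not tested.

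**Figure D4:**
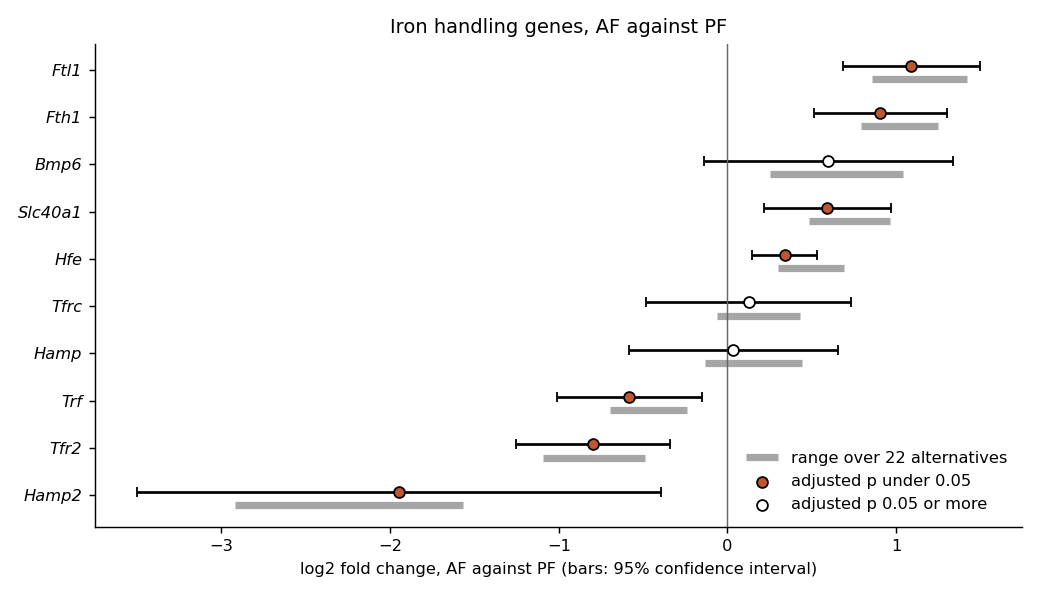
Log2 fold changes of the 10 genes in AF against PF livers (5 PF, 7 AF), with 95% confidence intervals as thin bars, filled points past the adjusted threshold, and grey bars for the range over 22 other ways of processing. Ftl1 and Fth1 lie near 1, Tfr2, Trf and Hamp2 below 0, and Hamp at 0.04.

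The iron regulatory proteins themselves were lower at the mRNA level. Ireb2, which encodes IRP2, fell from a PF mean of 184 ± 21.8 (SD, n = 5) to an AF mean of 80.1 ± 18.9 CPM (SD, n = 7; log2 -1.20, SE 0.15, adjusted p = 9.03e-05), and Aco1, which encodes IRP1, fell from a PF mean of 273 ± 16 (SD, n = 5) to an AF mean of 194 ± 31.4 CPM (SD, n = 7; log2 -0.50, SE 0.12, adjusted p = 0.00596). For both, all 7 AF livers lay below all PF livers. The call of Ireb2 held in all 22 alternatives, and that of Aco1 in all but library totals (adjusted p = 0.147). Of the 6 tested genes of this list 2 fell, none rose and 4 did not pass. This stands beside 17.8% lower and 22.0% higher of all tested genes. The median log2 fold change of the list was -0.17. With library totals 2 rose and 1 fell, and the median was 0.18. Ncoa4, the receptor that sends ferritin to lysosomes, had a log2 fold change of -0.22 (adjusted p = 0.121), and Fbxl5, the iron sensor that removes IRP2, 0.14 (adjusted p = 0.119). The chaperone Pcbp2 had -0.13 (adjusted p = 0.266). Ftmt, mitochondrial ferritin, had no reads in either group and was not tested.

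Of 6 genes that handle haem and haemoglobin, 2 rose, 1 fell and 3 did not pass. This stands beside 22.0% higher and 17.8% lower of all tested genes. The median log2 fold change of the list was -0.18. With library totals 2 rose and 1 fell, and the median was 0.13. Hmox1, haem oxygenase 1, which frees iron from haem, rose from a PF mean of 40.4 ± 5.1 (SD, n = 5) to an AF mean of 122 ± 85.9 CPM (SD, n = 7; log2 1.59, SE 0.34, adjusted p = 0.00334). AF replicate 6 held 315 CPM, and all AF livers lay above all PF livers. Slc48a1, the transporter HRG1 that moves haem out of the lysosomes of macrophages, rose 3.03-fold, from a PF mean of 51.5 ± 4.1 (SD, n = 5) to an AF mean of 156 ± 34.1 CPM (SD, n = 7; log2 1.60, SE 0.15, adjusted p = 9.46e-06), with all AF livers above all PF livers. Hp, haptoglobin, fell by 0.81 on the log2 scale (adjusted p = 0.0302). That call was lost without PF replicate 1, PF replicate 2, PF replicate 3, PF replicate 4 or AF replicate 3 and with the looser filter (adjusted p up to 0.0631). Hpx, hemopexin, which carries free haem, had -0.47 (adjusted p = 0.141), and its receptor Lrp1 -0.24 (adjusted p = 0.180).

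Of 12 tested genes of mitochondrial iron and iron-sulphur clusters, 5 fell, none rose and 7 did not pass. This stands beside 17.8% lower and 22.0% higher of all tested genes. The median log2 fold change of the list was -0.28. With library totals 4 rose and 1 fell, and the median was 0.07. Fdx1, ferredoxin 1, fell to 0.517 of PF (log2 -0.95, adjusted p = 0.00187). Abcb8, a transporter of the mitochondrial inner membrane, fell by 0.52 on the log2 scale (adjusted p = 0.00503). Lyrm4, a part of the cluster assembly complex, fell by 0.50 (adjusted p = 0.0116), and Cisd2, an iron-sulphur protein of outer membranes, by 0.32 (adjusted p = 0.00878). Cisd1 had -0.44 (adjusted p = 0.0628) and passed in 7 of 22 alternatives. With library totals, the falls of Abcb8, Lyrm4 and Cisd2 did not pass (adjusted p = 0.371 for Abcb8 and 0.406 for Lyrm4).

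**Figure D5:**
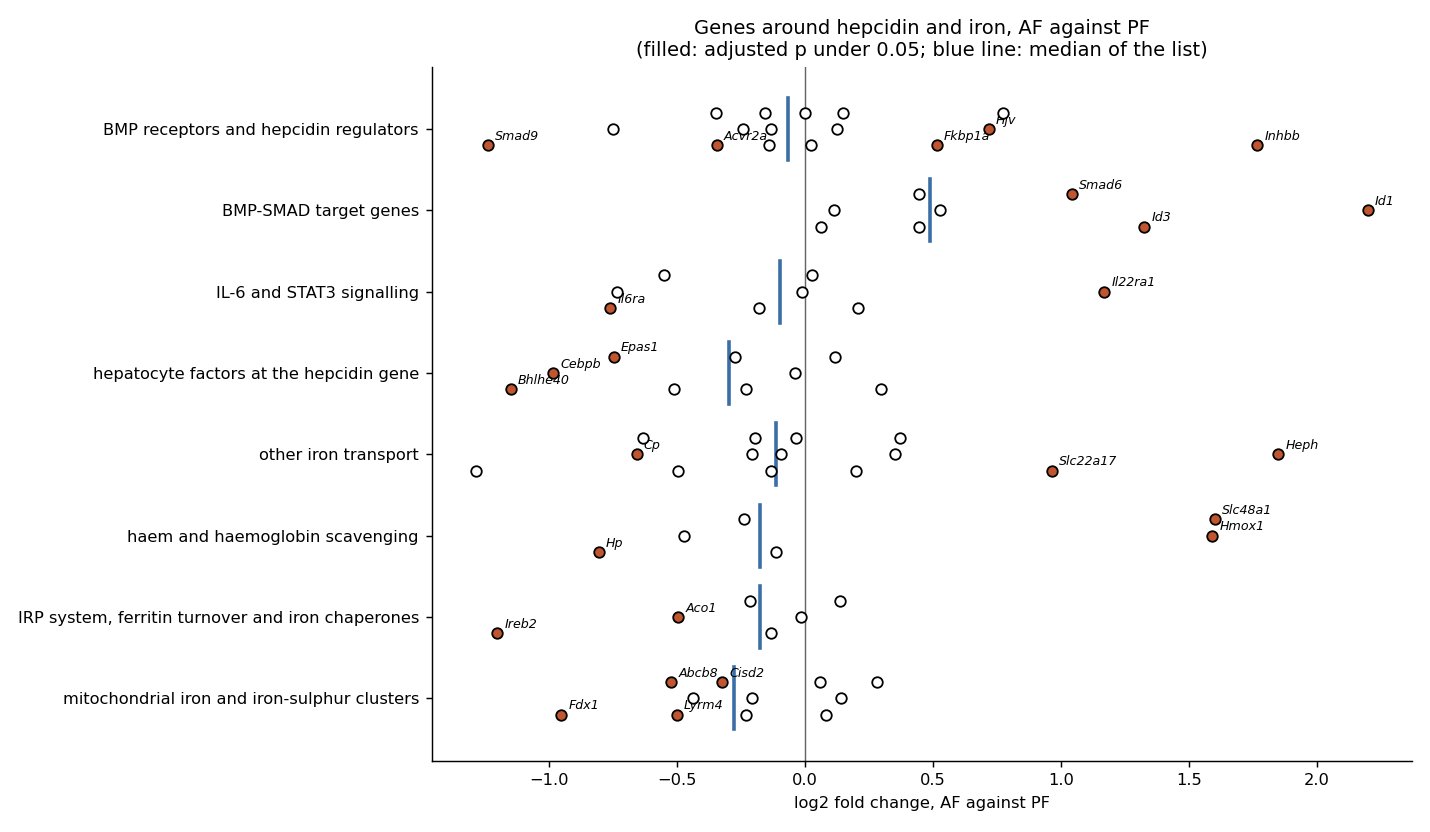
Log2 fold changes, AF against PF, of 78 of the 80 tested genes in 8 lists around hepcidin and iron; filled points passed the adjusted threshold, and the blue line is the median over all tested genes of a list. The genes past the threshold lie on both sides of 0 in 4 lists, above 0 for BMP targets, and below 0 for hepatocyte factors, the IRP system and mitochondrial iron.

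Levels between genes can be compared only per length. As RPKM (CPM per kilobase of the union of exons), the order in PF livers was Hamp (1488 ± 257), Trf (1460.2 ± 295), Ftl1 (447 ± 54.1), Fth1 (372 ± 17.9), Tfr2 (59.5 ± 7.6), Hamp2 (45.3 ± 24.4), Slc40a1 (26.0 ± 2.4), Hfe (16.4 ± 1.2), Tfrc (8.82 ± 3.67) and Bmp6 (0.801 ± 0.215), each as mean and SD over 5 livers. Of neighbours in this order, Hamp and Trf, Tfr2 and Hamp2, and Hamp2 and Slc40a1 differed by less than the larger of their SDs. In AF livers the order was Hamp (1525 ± 681), Trf (976 ± 203), Ftl1 (953 ± 255), Fth1 (697 ± 174), Slc40a1 (39.2 ± 10.5), Tfr2 (34.2 ± 12.1), Hfe (20.7 ± 2.2), Hamp2 (11.8 ± 15.99), Tfrc (9.64 ± 2.99) and Bmp6 (1.21 ± 0.73) over 7 livers. Of neighbours in this order, Hamp and Trf, Trf and Ftl1, Slc40a1 and Tfr2, Hfe and Hamp2, and Hamp2 and Tfrc differed by less than the larger of their SDs. The choice of length sets part of this order. By the length of the transcript with the longest coding sequence, Trf (1886) stood above Hamp (1488), Fth1 (863) above Ftl1 (619) and Slc40a1 (69.4) above Hamp2 (62.3) in PF livers.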

How the data were processed

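Raw counts per gene of 12 mouse liver libraries were used, as deposited by the authors. Per the labels and the study's methods, polyadenylated RNA was made into stranded libraries, and reads were checked with FastQC 0.10.1, aligned to GRCm38 (mm10) with TopHat2 2.0.13 and counted with HTSeq 0.10.0. The annotation and the strand setting of the counting are not given in the sources used here. GENCODE M21 names 54165 of the 54232 gene IDs. All 12 columns map to a sample, and no other column was used.

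From the counts, edgeR 4.0.16 (R 4.3.3) with TMM factors and filterByExpr tested AF against PF over 14168 genes with the quasi-likelihood test and Benjamini-Hochberg adjustment. CPM used the same factors. Ratios of counts (0.5 added to each) were tested by the exact two-sided permutation test over 792 splits, and relations by the exact permutation of pairings. Alternatives used DESeq2 1.42.0, limma 3.58.1, other scalings and filters, and each library left out. Scripts were tested on simulated data. Sequences were read with Python 3.11.15 and Biopython 1.88. No pair of livers within a group agreed within counting noise, with the lowest ratio to it at 21.2 over 31 pairs.

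The 10 members and all gene lists were chosen with earlier results of these data known. Named were the members, the 5 tested genes of each list with the largest absolute log2 fold change, and a fixed set of regulators. Fkbp1a, Acvr2a, Cisd2 and the marker genes were named beside their counts, in part after their values were seen. A few list genes are counted in their lists but not reported here by name.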

Additional observations from a re-analysis of the deposited data

Results flagged for a closer look

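Of 124 groups of values over 5 or 7 livers, 18 had a liver that stood apart from the rest of its group by Dixon's 95% limit, where chance gives about 6.2, since it marks about 1 in 20 groups. Among the 10 iron genes these were Hamp2 in AF replicate 7 (27.3 CPM), Bmp6 in AF replicate 1 (10.8 CPM), Trf in PF replicate 1 (6565 CPM) and Fth1 in PF replicate 4 (1178 CPM). The first 3 are the highest of their group and the last the lowest.

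AF replicate 6 stood apart upwards for Stat3 (230 CPM), Socs3 (34.4 CPM), Cebpb (22.1 CPM), Slc39a14 (515 CPM), Hmox1 (315 CPM) and Ireb2 (120.1 CPM). It was also the liver with the fewest Hamp2 reads.

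AF replicate 1 was high for Inhbb (10.8 CPM), AF replicate 5 for Heph (18.2 CPM), and AF replicate 4 for Lcn2 (3914 CPM) and for the log2 ratio of Trf to Alb (-3.46). In PF livers, replicate 2 was high for Smad9 (14.6 CPM) and low for Cp (4636 CPM), and replicate 1 was high for Fgl1 (2060.4 CPM) and low for Ncoa4 (168 CPM).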

How the results depend on the processing

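Fth1, Ftl1, Slc40a1 and Tfr2 kept direction and call in all 22 alternatives, and Bmp6 passed the threshold in none of them. The tally of alternative values leaves out the fold changes of single genes other than the iron genes. In it, 488 were the same, 39 moved, 18 changed sign, 23 lost and 1 gained a call, and the cause was not tested. The log2 fold change of Hamp was -0.10 with limma-voom, -0.041 with sample quality weights and -0.13 without AF replicates 1 and 6 (chosen after seeing the data as the highest and lowest TMM factor among AF libraries), and ran from -0.14 to 0.16 with 1 liver left out. The highest value of Hamp over all 22 alternatives was 0.44. Tfrc was at -0.063 with sample quality weights, ran from -0.038 to 0.26 with 1 liver left out, and reached 0.43 over all 22 alternatives. Hamp2 did not pass with upper-quartile scaling (-1.89), library totals (-1.67) or without AF replicates 1 and 6 (-1.57), and ran from -2.92 to -1.57 with 1 liver left out. Trf did not pass with library totals (-0.24), with every gene of at least 1 count (-0.57) or without AF replicates 1 and 6 (-0.50), and ran from -0.67 to -0.45. Lower iron genes numbered 1 with library totals and without AF replicates 1 and 6, and from 1 to 3 with 1 liver left out. The difference in Hamp2/Hamp ran from -3.43 to -2.14 and that in Trf/Alb from -0.067 to 0.17. With library totals, r of Hamp was 0.37 with Hfe and 0.44 with Smad7, and without the 2 farthest livers 0.069 with Trf and 0.24 with Cebpa.

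BMP-SMAD targets past the threshold numbered 3, against 5 with upper-quartile scaling, 6 with library totals and 5 with quality weights, and 3 to 5 with 1 liver left out. IL-6 and STAT3 genes numbered 2, and 1 to 4. Hepatocyte factors numbered 3, against 5 with library totals, 6 with quality weights, 5 without AF replicates 1 and 6, and 2 to 6. Other transport genes numbered 3, against 8 with quality weights, 5 without AF replicates 1 and 6, and 2 to 6. With mRNA length (added after seeing the data), RPKM in PF and AF was 83.9 and 48.2 for Tfr2, 1886 and 1260.1 for Trf, 863 and 1618 for Fth1, 619 and 1319 for Ftl1, and 69.4 and 105 for Slc40a1.

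The replicate block over replicates 1 to 5 gave 6256 genes past the threshold against 5635. Same-numbered livers deviated together with correlations of 0.00335, -0.0749, 0.117, 0.0794 and 0.115, so the numbers were not taken to pair the livers. Under the replicate block Hfe did not pass (0.30, adjusted p = 0.0544), and the lists had 5 BMP-SMAD targets, 4 IL-6 and STAT3, 6 hepatocyte factor and 8 other transport genes past the threshold. The same 10 livers without the number gave 6, 5, 6 and 7.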
